A study of Mus musculus with 6 samples.

Results

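The p53 target and apoptosis genes described here are a set of 10 genes: Phlda3, Mdm2, Bax, Bbc3, Pmaip1, Ccng1, Trp53inp1, Sesn2, Zmat3 and Aen. They were found on the arrays by symbol, through every probe set that the array's annotation gives that symbol alone. This reached 9 of the 10 genes, among 18193 genes measured in all, and 18 probe sets among 45037. Bax was not analysed here. A gene was represented by its brightest probe set, and the other probe sets are reported beside it.

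The 6 Affymetrix arrays measured total RNA of small intestinal cells sorted for high GFP. All mice carried the Lgr5-EGFP-IRES-creERT2 allele, which places EGFP and a tamoxifen-dependent Cre in the gene for Lgr5, a receptor of stem cells at the crypt base. The control group was 3 mice given vehicle (DMSO). The treated group was 3 mice given DBZ, an inhibitor of gamma-secretase, the protease that cuts Notch receptors so that they can signal, and cells were taken at 24 h. The groups follow the sample titles, with which the description field, DMSO throughout, disagrees for the DBZ arrays. Age, sex and dose are not used here. Sorting on this allele favours cells with an active Lgr5 locus in both groups.

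p53, encoded by Trp53, is a transcription factor that is stabilised by DNA damage and other stress. It switches on genes that halt the cell cycle, repair DNA, or start apoptosis through the BCL-2 family at the mitochondrion, and it also switches on Mdm2, which marks p53 for destruction and so closes a feedback loop. Some cells in the lower part of the small intestinal crypt are known to die by p53-dependent apoptosis after irradiation. The protein level and activity of p53 are not read by an expression array, and the transcript of Trp53 was not analysed here.

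Across the set, 1 of the 9 measured members passed the test for a difference between DBZ and vehicle, and it was higher with DBZ. This was Phlda3, and 0 members fell (limma, Benjamini-Hochberg adjustment over all genes, threshold 0.05). The background in the same test was 5.34% of all genes, of which 3.82% were higher and 1.52% lower, so 1 of 9 is not read as a result about the set. Before adjustment 4 of 9 had a p under 0.05, namely Phlda3, Zmat3, Pmaip1 and Mdm2, where the background was 26.3%. The groups did not overlap for 5 members, 3 with DBZ above (Phlda3, Mdm2 and Zmat3) and 2 with DBZ below (Pmaip1 and Bbc3). Over all genes 33.2% had groups that did not overlap, 17.3% with DBZ above and 15.8% with DBZ below. The median log2 difference of the 9 members was 0.046, against -0.017 over all genes, with 5 members positive and 4 negative. That median turned negative with quantile normalization, at -0.019, and without DBZ replicate 3, at -0.054. Differences here are DBZ minus vehicle in log2(intensity + 16), and a value of 1 would be a doubling of a bright gene.

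Several properties of the arrays stand beside every value that follows, and some moved with the treatment. The array medians lay between 44.9 and 46.3 intensity units. Of 10 fibroblast and smooth muscle markers 7 rose and all 10 were positive, and their summed intensity spanned 19599 to 29163 for vehicle and 43625 to 50873 for DBZ. Of 9 goblet cell markers 4 rose and 0 fell, with sums of 109307 to 117439 and 137515 to 170119. Among markers of other cells, 1 of 6 endothelial, 2 of 7 myeloid and neutrophil, 1 of 3 adipocyte, 0 of 5 mesothelial and 0 of 6 T cell markers rose and 0 fell (limma; 4 mesothelial and 1 T cell marker had an unadjusted p under 0.05). All 6 endothelial markers were positive with groups apart, with sums of 833 to 898 for vehicle and 1074 to 1274 for DBZ. Positive were also 6 of 7 myeloid and neutrophil, 2 of 3 adipocyte, 5 of 5 mesothelial and 0 of 6 T cell markers. Adipocyte sums were 1227 to 2647 for vehicle and 4270 to 10154 for DBZ. Of 7 enterocyte markers 0 passed (limma; 2 had an unadjusted p under 0.05) and 0 were positive, with a median of -0.19. None of 7 epithelial markers passed (limma; 1 had an unadjusted p under 0.05), and their sums were 84473 to 91937 and 90379 to 93917. Of 8 enteroendocrine markers 2 rose and 0 fell, with sums of 2980 to 3823 and 5080 to 12456. Of 5 Paneth cell markers 2 rose and 0 fell (limma; 3 had an unadjusted p under 0.05), with sums of 60843 to 71424 and 34957 to 70417. The Paneth cell markers moved apart, with 2 positive and 3 negative and a median of -0.30. Of 7 stem cell markers 1 rose and 2 fell, and their sums were 9269 to 11644 for vehicle and 7560 to 8391 for DBZ. Olfm4, a Notch-dependent marker of crypt base stem cells, fell from a mean of 4346 to 28.1 and Ascl2, a stem cell transcription factor, from 179 to 79.5, while Rgmb rose from 229 to 407 (n = 3; limma, adjusted p = 0.000416, 0.0248 and 0.0217). Lgr5, the gene used for the sort, overlapped, at 204, 260 and 271 in the vehicle arrays and 242, 209 and 239 in the DBZ arrays. RNA integrity, read as the ratio of 3' to 5' signal for actin, was apart between the groups, with ratios of 1.61 to 2.22 for vehicle and 1.51 to 1.57 for DBZ, whereas the same ratio for Gapdh overlapped, at 1.07 to 1.42 and 1.05 to 1.09. The part of these differences in the results below was not tested. Because each array read all sorted cells together, fewer cells of a type and less RNA per cell cannot be told apart.

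The promoters of the members are shown because direct p53 targets carry p53 response elements, which are pairs of a 10-base half-site. RefSeq promoter windows (GRCm38.p6; 250 bases before to 50 bases after the start of transcription) were held for 7 members in 10 windows, Bbc3 having 3 and Aen 2, and for 3 members there was none in the table. The p53 half-site consensus, which reads the same on both strands, was found in 5 of these windows, from 4 members: Mdm2, Bax, Ccng1 and Aen. It was in 8.36% of all 32851 windows. A pair of such half-sites separated by at most 13 bases was in the windows of 0 members and in 0.0731% of all windows. The consensus was RRRCWWGYYY, where R is A or G, W is A or T and Y is C or T. Only exact matches were counted, here and in the capitals below, so pairs with a mismatched half-site were missed. The upstream 250 bases of 4 genes follow, 5' to 3', with half-sites in capitals: the member that rose (Phlda3), 2 members with a half-site (Mdm2 and Ccng1), and Cdkn1a, which encodes the cell cycle inhibitor p21 and is the best known p53 target outside the set.
Phlda3, chr1:135765835-135766084, plus strand: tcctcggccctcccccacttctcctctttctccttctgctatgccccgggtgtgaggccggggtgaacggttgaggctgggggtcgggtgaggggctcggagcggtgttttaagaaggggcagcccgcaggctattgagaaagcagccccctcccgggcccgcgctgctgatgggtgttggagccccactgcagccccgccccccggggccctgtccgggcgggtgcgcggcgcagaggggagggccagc
Mdm2, chr10:117710759-117711008, minus strand: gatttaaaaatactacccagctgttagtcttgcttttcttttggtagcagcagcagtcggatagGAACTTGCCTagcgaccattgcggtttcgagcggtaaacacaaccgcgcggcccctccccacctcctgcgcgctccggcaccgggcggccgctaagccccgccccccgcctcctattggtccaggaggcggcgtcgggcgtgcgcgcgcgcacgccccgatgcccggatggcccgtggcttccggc
Ccng1, chr11:40755287-40755536, minus strand: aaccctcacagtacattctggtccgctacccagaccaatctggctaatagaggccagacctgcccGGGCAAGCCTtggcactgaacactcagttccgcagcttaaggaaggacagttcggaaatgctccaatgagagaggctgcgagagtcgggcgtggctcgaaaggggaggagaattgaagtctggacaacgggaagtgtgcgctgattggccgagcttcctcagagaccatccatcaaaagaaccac
Cdkn1a, chr17:29090729-29090978, plus strand: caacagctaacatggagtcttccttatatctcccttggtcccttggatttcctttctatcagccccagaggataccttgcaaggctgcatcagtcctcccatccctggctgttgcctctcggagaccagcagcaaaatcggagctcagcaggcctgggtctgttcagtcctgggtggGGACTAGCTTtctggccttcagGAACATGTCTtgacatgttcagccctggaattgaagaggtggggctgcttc

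In Mdm2 the half-site GAACTTGCCT began at position -186 from the start of transcription, and in Ccng1 GGGCAAGCCT began at -185. The bases directly before this Ccng1 site, agacctgccc, differ from the consensus at a single base and were not counted. The window of Bax held AGGCAAGCTT at -201, and both windows of Aen held the same site, GGGCTTGTCC, at 11 bases after one start and at -121 from the other. The Cdkn1a window shown is the upstream one of 2 in the table and held exact matches GGACTAGCTT and GAACATGTCT, with 12 bases between them. The bases directly after GAACATGTCT, tgacatgttc, differ from the consensus at a single base and were left unmarked. The windows of Phlda3, Sesn2 and Bbc3 held no such letters, which says nothing of sites elsewhere in these genes. The core letters TGGGAA of RBPJ, the DNA-binding partner of Notch, were searched on both strands. They were found in 3 of the 10 windows, from the members Bax, Sesn2 and Aen, and in 25.6% of all windows. This count is not read as a result about the members. The measured members with a half-site, Mdm2, Ccng1 and Aen, have log2 differences of 0.36, 0.046 and 0.26 below, all positive and none past the test, and the sign of Ccng1 turned under 2 alternatives given with it. Those whose windows held none, Phlda3, Sesn2 and Bbc3, have 0.58, -0.05 and -0.11. These are descriptions of letters and not of binding.

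**Figure D1:**
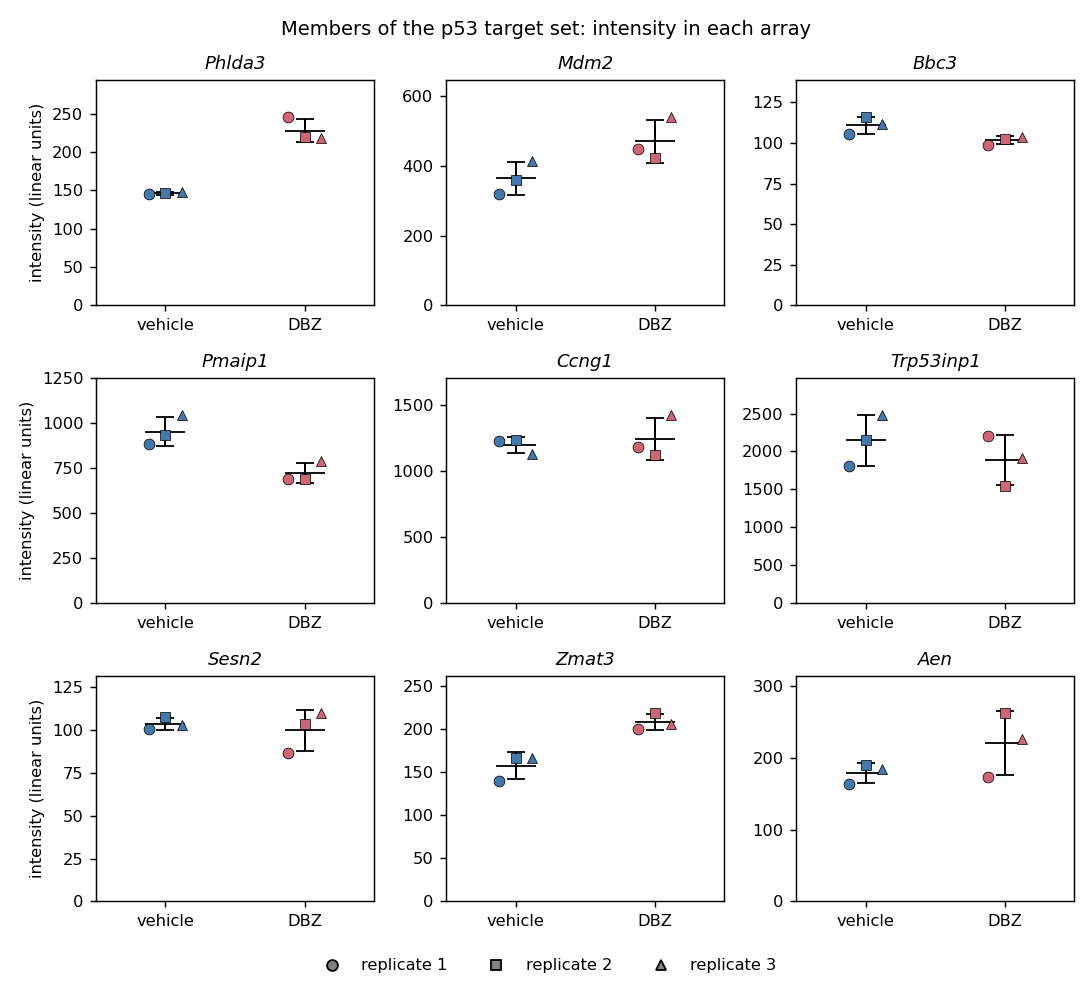
Intensity (linear units, axes from 0) of the 9 measured members in each of the 3 vehicle and 3 DBZ arrays, where each symbol is 1 mouse, the horizontal bar is the group mean and the whiskers are the SD. Phlda3 lies at 145 to 148 for vehicle and at 219 to 245 for DBZ, while the groups of Ccng1, Trp53inp1, Sesn2 and Aen overlap.

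Phlda3, which encodes a small pleckstrin homology domain protein that competes with the kinase Akt for membrane lipids, was the member that rose. Its intensity was 145, 146 and 148 for vehicle replicates 1, 2 and 3, against 245, 220 and 219 for DBZ replicates 1, 2 and 3. All DBZ arrays were above all vehicle arrays, and the vehicle arrays were nearly alike. The means were 146 ± 1.88 and 228 ± 14.9 (SD, n = 3), a ratio of 1.56. The log2 difference was 0.58 ± 0.065 (SE) and its 95% interval ran from 0.43 to 0.74 (Benjamini-Hochberg adjusted p = 0.020, limma). The call rested on the full set of vehicle arrays. Without vehicle replicate 1, 2 or 3 the difference was 0.58, 0.58 and 0.59, and the adjusted p was 0.070, 0.091 and 0.077 (limma). Most calls over all genes were lost with the same omissions, which left 49, 19 and 38 against 972. Leaving out a DBZ array kept the call of Phlda3, at an adjusted p of 0.013 to 0.047 (limma). Phlda3 has a single probe set on the array.

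Mdm2, the ubiquitin ligase that limits p53, was higher in every DBZ array than in any vehicle array but did not pass the test. It read 319, 358 and 412 in vehicle and 448, 421 and 538 in DBZ replicates 1, 2 and 3. The gap between the groups was narrow, from 412 in vehicle replicate 3 to 421 in DBZ replicate 2. The log2 difference was 0.36 ± 0.13 (SE, n = 3) and its 95% interval ran from 0.05 to 0.66 (Benjamini-Hochberg adjusted p = 0.14, limma). A dimmer probe set of the gene also had groups apart, at 83.4, 127 and 141 in vehicle and 156, 158 and 196 in DBZ arrays, a difference of 0.50. The third, at 10.2 to 13.8 in all arrays, lay far below the array medians and differed by 0.0040. Neither of these passed the test over all probe sets, in which 1.95% were called (limma, adjusted p = 0.20 and 0.98).

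Pmaip1 and Bbc3 were both lower in every DBZ array than in any vehicle array, and neither passed. They encode NOXA and PUMA, BH3-only proteins that bind and neutralise the survival proteins of the BCL-2 family. Pmaip1 read 885, 934 and 1044 in vehicle and 693, 692 and 791 in DBZ replicates 1, 2 and 3. The group means differed by more than the SD of either group, at 954 ± 81.8 and 725 ± 56.5 (SD, n = 3), a ratio of 0.76. The log2 difference was -0.39 ± 0.090 (SE) and its 95% interval ran from -0.61 to -0.17 (Benjamini-Hochberg adjusted p = 0.063, limma). It passed with quantile normalization (limma, adjusted p = 0.041) and with array weights (limma, adjusted p = 0.016), and the range over all alternatives was 0.016 to 0.18. Bbc3 was at 105, 116 and 111 in vehicle and 99.0, 103 and 103 in DBZ arrays. The whole range of Bbc3 over the 6 arrays was 0.20 on the log2 scale, and its difference was -0.11 with a 95% interval from -0.25 to 0.036 (limma, adjusted p = 0.31, n = 3). The direction of Pmaip1, and of Bbc3 with its interval across 0, was opposite to that of Phlda3, Mdm2 and Zmat3. Aen, which also takes part in apoptosis, was positive at 0.26 with overlapping groups.

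Aen encodes a nuclease that takes part in DNA degradation during p53-dependent apoptosis. Its brightest probe set read 164, 190 and 185 in vehicle and 173, 262 and 226 in DBZ replicates 1, 2 and 3. DBZ replicate 1 lay within the vehicle range, and the other two DBZ arrays lay above it. The difference was 0.26 ± 0.15 (SE, n = 3; Benjamini-Hochberg adjusted p = 0.33, limma). It was 0.41 without DBZ replicate 1 and 0.13 without DBZ replicate 2, and passed in neither case (limma, adjusted p = 0.064 and 0.61). Of its other 3 probe sets, one had groups apart with vehicle at 31.3 to 36.5 and DBZ at 41.7 to 53.4, both near or below the array median, with a difference of 0.34 (limma over all probe sets, adjusted p = 0.092). The remaining probe sets differed by 0.035 and 0.0054.

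Zmat3 encodes a zinc finger protein that binds RNA and is known as a p53-induced regulator of splicing. It read 140, 167 and 167 in vehicle and 200, 219 and 206 in DBZ replicates 1, 2 and 3, so that the groups did not overlap. The log2 difference was 0.37 ± 0.085 (SE, n = 3) and its 95% interval ran from 0.16 to 0.58 (Benjamini-Hochberg adjusted p = 0.061, limma). It did not pass as fitted and passed in 1 of 21 alternatives, array weights (limma, adjusted p = 0.024; range over the alternatives 0.024 to 0.18). Zmat3 has a single probe set.

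The members that act on the cell cycle, autophagy and metabolism overlapped between the groups. Ccng1, cyclin G1, which recruits a phosphatase to Mdm2, read 1233, 1235 and 1130 in vehicle and 1186, 1122 and 1425 in DBZ arrays, and the highest array was DBZ replicate 3. Its difference was 0.046, and its 95% interval ran from -0.20 to 0.30 (Benjamini-Hochberg adjusted p = 0.81, limma, n = 3). The sign turned with quantile normalization, at -0.019, and without DBZ replicate 3, at -0.054. The other probe sets of Ccng1 differed by 0.12 and 0.47, and the latter spread from 173 in vehicle replicate 1 to 401 in DBZ replicate 3.

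Trp53inp1, a nuclear protein of the stress response that also takes part in autophagy, had the widest spread among vehicle arrays of the 9 members on the log2 scale. It read 1808, 2152 and 2476 in vehicle and 2202, 1551 and 1915 in DBZ arrays. The SD on the log2 scale was 0.23 in vehicle and 0.25 in DBZ arrays, larger than the difference of -0.19, whose 95% interval was -0.58 to 0.21 (Benjamini-Hochberg adjusted p = 0.53, limma, n = 3). It was -0.051 without DBZ replicate 2, -0.077 without vehicle replicate 3, and -0.30 without either replicate 1. Sesn2, sestrin 2, a leucine sensor that restrains the growth kinase mTORC1, read 101, 108 and 103 in vehicle and 86.5, 104 and 110 in DBZ arrays. The DBZ arrays spanned the vehicle range on both sides. The difference was -0.05, and its 95% interval ran from -0.27 to 0.17 (limma, adjusted p = 0.77, n = 3), and without DBZ replicate 1 it was 0.036. The dimmer probe set of Sesn2 differed by 0.036.

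**Figure D2:**
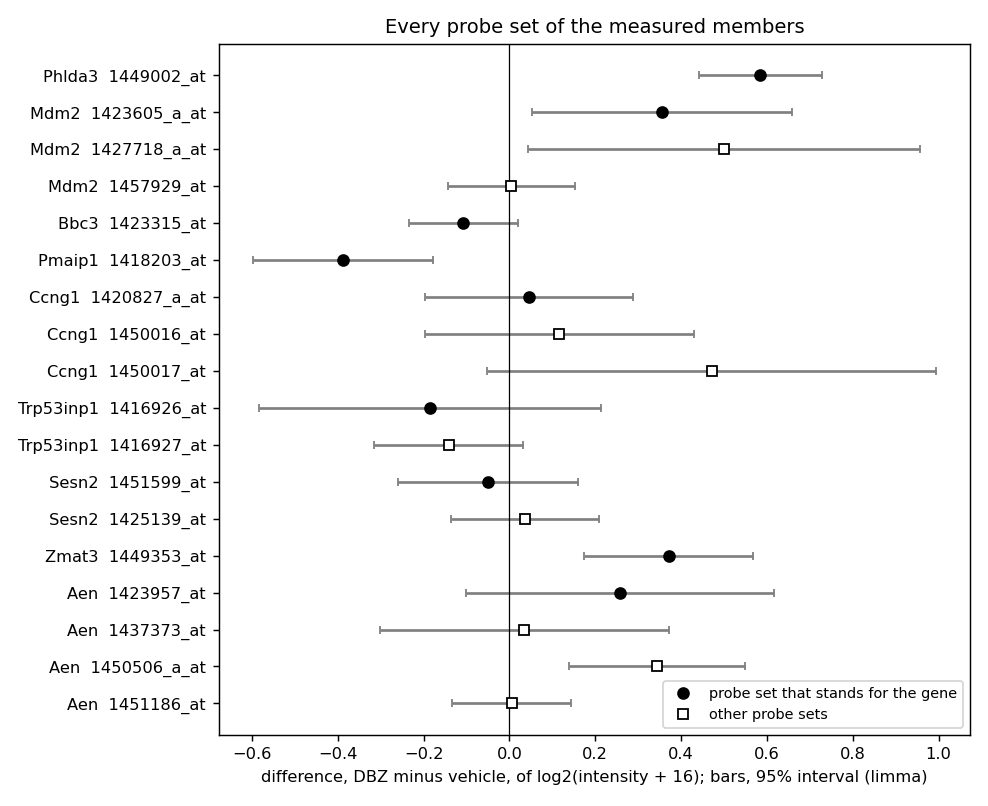
Difference between DBZ and vehicle, in log2(intensity + 16), of all 18 probe sets of the measured members with 95% intervals from limma over all probe sets (3 arrays a group); filled circles stand for the gene and open squares are the other probe sets. Phlda3 at 0.58 lies farthest above 0 and Pmaip1 at -0.39 farthest below, and the intervals of Ccng1, Trp53inp1, Sesn2 and Bbc3 all cover 0.

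The arrays did not carry the set in one order. Vehicle replicate 1 was the lowest of the vehicle arrays for 8 of the 9 members, where 38.6% of all genes had their lowest vehicle value in that array. It was the highest of them for 0 members and for 39.5% of all genes. It also had the highest actin 3' to 5' ratio, 2.22. Averaged over the 9 members, the log2 value relative to the vehicle mean was -0.095, 0.031 and 0.064 for vehicle replicates 1, 2 and 3, against 0.053, 0.067 and 0.17 for the DBZ replicates in the same order. Vehicle replicate 3 thus lay above DBZ replicate 1, and the averages of the groups overlapped. Without vehicle replicate 1 the differences of Mdm2 and Zmat3 were 0.27 and 0.29 in place of 0.36 and 0.37, and that of Pmaip1 was -0.44 in place of -0.39. DBZ replicate 3 was the highest of its group for 5 of the 9 members and for 32.4% of all genes.

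Among 14 measured genes for p53 regulators, 1 rose and 0 fell, with a median of -0.10. Groups were apart for 9 of the 14, 2 with DBZ above and 7 with DBZ below, against 33.2%, 17.3% and 15.8% of all genes. Before adjustment 7 of the 14 had a p under 0.05 (limma), against 26.3% of all genes. The gene that rose was Trp53bp1, which encodes a protein of double-strand break repair, from a mean of 336 ± 21.2 to one of 451 ± 35.5 (SD, n = 3; Benjamini-Hochberg adjusted p = 0.0485, limma). Its difference was 0.41, or 0.15 as the mean of all its probe sets (limma, adjusted p = 0.14), and it passed in 7 of 21 alternatives. Chek1 and Chek2, the checkpoint kinases that signal damage to p53, were at -0.64 ± 0.15 and -0.62 ± 0.16 (SE, n = 3; limma, adjusted p = 0.061 and 0.076), values given outside the naming rule because they were seen to be the lowest of the list. Mdm4, the paralog of Mdm2, was at 0.07 ± 0.19 (limma, adjusted p = 0.85).

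Of 29 measured p53 target genes outside the set, 1 rose and 0 fell, with a median of -0.08, 12 positive and 17 negative. Groups were apart for 6 of the 29, against 33.2% of all genes. Dram1, a lysosomal membrane protein that p53 can induce and that promotes autophagy, read 58.4, 57.9 and 55.6 in vehicle and 192, 154 and 280 in DBZ replicates 1, 2 and 3. Every DBZ array was far above the vehicle arrays, with a log2 difference of 1.58 ± 0.19 (SE, n = 3; Benjamini-Hochberg adjusted p = 0.023, limma). Cdkn1a, whose promoter is printed above, read 4609, 3525 and 4429 in vehicle and 3521, 3805 and 4012 in DBZ arrays. The groups overlapped, and the difference was -0.14 with a 95% interval from -0.42 to 0.14 (limma, adjusted p = 0.50). As the mean of its probe sets it was 0.016, and for the probe set of largest variance 0.17.

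In the BCL-2 family outside the set, 0 of 14 measured genes passed (limma; 3 had an unadjusted p under 0.05), and the median was -0.085. Bcl2l11, the BH3-only protein BIM, read 321, 309 and 230 in vehicle and 211, 140 and 158 in DBZ arrays. Its groups were apart, at a difference of -0.71 ± 0.18 (SE, n = 3; Benjamini-Hochberg adjusted p = 0.073, limma). It was -0.36 as the mean of all its probe sets (limma, adjusted p = 0.13), and it passed in 3 of 21 alternatives, with an adjusted p of 0.031 to 0.21 over all of them (limma). Groups were apart for 3 of the 14 genes, against 33.2% of all genes. Among the other BH3-only genes, Bmf had groups apart with DBZ below, at -0.20 (limma, adjusted p = 0.17). Those of Bik, Bid, Bad and Hrk overlapped, with differences of 0.32, -0.46, -0.084 and -0.086. Bcl2, the survival protein, was at 0.31 ± 0.095 (limma, adjusted p = 0.11).

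Among 18 caspase, apoptosome and caspase inhibitor genes 0 rose and 1 fell, with a median of -0.041. Dffa, the inhibitor and chaperone of the apoptotic nuclease DFF40, fell by 0.35 on the log2 scale (Benjamini-Hochberg adjusted p = 0.0491, limma). As the mean of all its probe sets it was at -0.18 (limma, adjusted p = 0.082), and it passed in 2 of 21 alternatives. Among 14 death receptor and adaptor genes 0 rose and 1 fell, with a median of 0.093. Groups were apart for 6 of the 18 genes of the caspase list and 8 of these 14, against 33.2% of all genes. Fadd, the adaptor that joins death receptors to caspase-8, fell from a mean of 283 ± 8.24 to one of 206 ± 22.5 (SD, n = 3; limma, adjusted p = 0.0489), a log2 difference of -0.43. Fadd was at -0.33 as the mean of all its probe sets (limma, adjusted p = 0.073), and it passed in 8 of 21 alternatives.

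Of 11 paralogs of the members, 3 rose and 0 fell, where 3.82% and 1.52% of all genes did. Groups were apart for 7 of the 11, 4 with DBZ above and 3 with DBZ below, against 33.2%, 17.3% and 15.8% of all genes. Phlda1, related to Phlda3, read 450, 338 and 800 in vehicle and 1319, 1448 and 2195 in DBZ arrays. It rose by 1.67 ± 0.34 (SE, n = 3; Benjamini-Hochberg adjusted p = 0.0487, limma), while Phlda2, dim in all arrays at 21.4 to 38.9, was at -0.063. Isg20, an exonuclease gene related to Aen, rose by 1.38 ± 0.25, and Trp53inp2, related to Trp53inp1, by 0.61 ± 0.12 (SE, n = 3; limma, adjusted p = 0.039 and 0.0491). Trp53inp2 was at 0.37 as the mean of its probe sets and did not then pass (limma, adjusted p = 0.19). Sesn1, the other p53-induced sestrin, read 1964, 1943 and 1783 in vehicle and 1454, 849 and 522 in DBZ arrays, a difference of -1.12 that did not pass (limma, adjusted p = 0.11). Sesn1 was named after its values were seen.

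Genes of the integrated stress response, which can also induce Sesn2, had a median of 0.35, with 14 of 16 positive, where 8263 of all 18193 genes were, and with 2 risen and 1 fallen. Groups were apart for 7 of the 16, 6 with DBZ above, against 33.2% and 17.3% of all genes. In Asns, Eif4ebp1, Trib3, Phgdh, Shmt2 and Nupr1, all positive, DBZ replicate 1 lay within or below the vehicle range. Vldlr and Ddit3 rose by 1.15 and 0.33, and Cth, an enzyme of cysteine synthesis, fell by 0.78 (Benjamini-Hochberg adjusted p = 0.0478, 0.0475 and 0.0428, limma). Ddit3 was at 0.12 as the mean of all its probe sets (limma, adjusted p = 0.29) and passed in 5 of 21 alternatives. Atf4, the central factor of the response, was at 0.22 ± 0.12 (limma, adjusted p = 0.31). Sesn2 itself was at -0.05, as given above.

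All 10 calls in these lists were lost without vehicle replicate 1, 2 or 3. Over all genes these omissions left 49, 19 and 38 calls, against 972 with all arrays, so most calls of any kind were lost. Of the 10, 6 held without DBZ replicate 1, 1 without DBZ replicate 2 (Dram1) and 2 without DBZ replicate 3 (Dram1 and Isg20). Over the alternatives their adjusted p reached 0.16 to 0.29 at the highest (limma). Phlda1, Trp53inp2, Vldlr, Cth and Isg20 passed in 8, 9, 9, 12 and 14 of 21 alternatives, and Dram1 in 16 of 20. The markers of fibroblasts and smooth muscle were higher in the same DBZ arrays, by a median of 1.07, and their part in these differences was not tested.

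**Figure D3:**
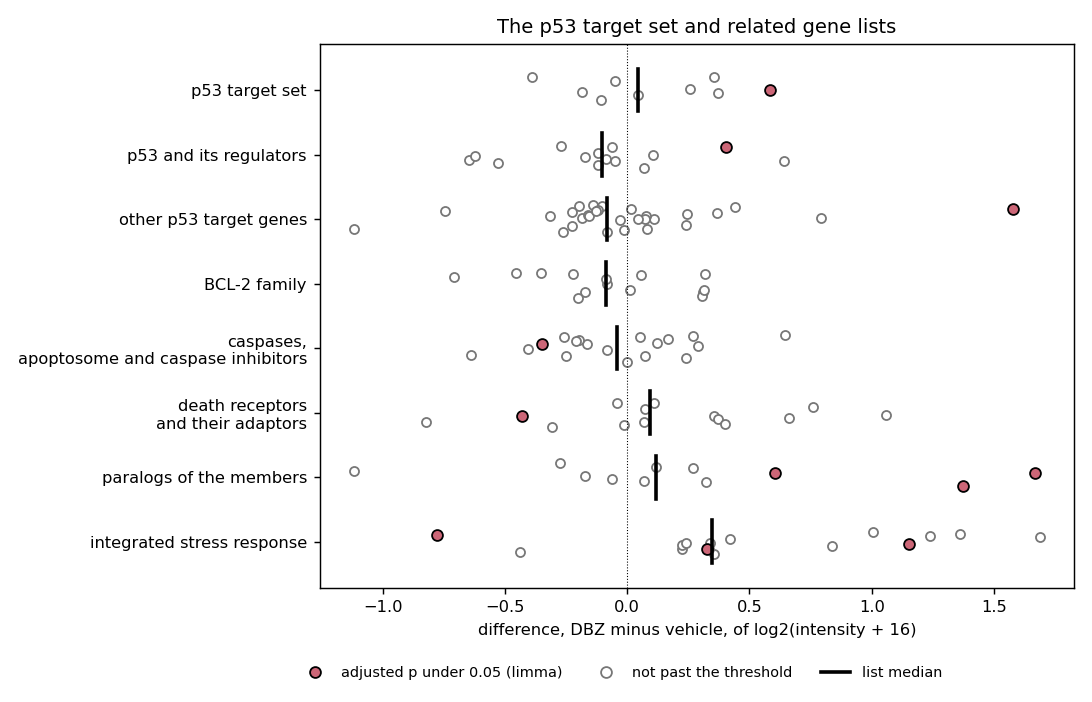
Difference between DBZ and vehicle, in log2(intensity + 16), of each measured gene in the p53 target set and 7 related lists; filled points passed limma at an adjusted p under 0.05 and vertical bars are list medians. The set holds 1 filled point of 9, and its median of 0.046 lies close to 0, as do those of the other p53 target genes (-0.08) and the BCL-2 family (-0.085).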

How the data were processed

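RNA of 6 sorted samples, 3 vehicle and 3 DBZ mice, was hybridised to Affymetrix arrays after labelling with a 3' IVT kit, per the labels. The authors deposited linear intensities per probe set, already level between arrays. How they corrected background and normalized is not given in the sources used here. Differences were computed from the deposited intensities as log2(intensity + 16), which understates changes of dim genes.

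Probe sets with 1 gene symbol were used (34945, after removing 64 controls). Another 932 had several symbols and 9160 had none, and neither kind was used by gene. Each gene was represented by its brightest probe set, giving 18193 genes. The groups were tested with limma (version 3.58.1; R 4.3.3) using lmFit and eBayes, two-sided. P-values were Benjamini-Hochberg adjusted across all genes, and the threshold was 0.05. The test was checked on simulated data. With 3 arrays a group, exact permutation of 1 value reaches p = 0.1 at best. The number of arrays limits the precision. Titles call the arrays biological replicates.

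The members and lists were chosen with earlier results of these data known. All members are named, with Trp53 and Cdkn1a and, of each related list, up to 4 genes past the threshold or the 2 of smallest p. Chek1, Chek2, Mdm4, Bmf, Bik, Bid, Bad, Hrk, Phlda2, Sesn1, Atf4, Asns, Eif4ebp1, Trib3, Phgdh, Shmt2 and Nupr1 were named after their values were seen. Genes of like profile were to be named only for members ranging by more than 1 on the log2 scale, and there were none. Alternatives were 21: normalization, pseudocount, filters on dim genes, probe set choice, variance models, array weights, a replicate block and leaving out each array. Promoters came from RefSeq (GRCm38.p6).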

Additional observations from a re-analysis of the deposited data

How the results depend on the processing

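Of the 9 members, Phlda3 kept its direction in all 21 alternatives and its call in 17. Besides the omission of a vehicle array, ordinary t statistics ended it, at an adjusted p = 0.113 (Benjamini-Hochberg). Mdm2, Bbc3, Pmaip1, Trp53inp1, Zmat3 and Aen kept their direction wherever they were tested. The number of members called was 2 with quantile normalization, 3 with array weights, 0 with ordinary t statistics (4 at an unadjusted p under 0.05) and 0 to 1 when an array was left out. The median difference of the members, 0.046, was 0.26 among the 7 members above the median gene, 0.26 with the probe set of largest variance and 0.16 as the mean of all probe sets. It was negative with quantile normalization, at -0.019, and ran from -0.054 (without DBZ replicate 3) to 0.12 when an array was left out, so its sign did not hold. Over all genes 972 were called, against 440 with a pseudocount of 64, 1481 among genes of mean intensity 32 or more, 2690 with array weights, 0 with ordinary t statistics (3731 unadjusted) and 19 to 2032 when an array was left out. Signs turned for Ccng1 (-0.019 with quantile normalization, -0.054 without DBZ replicate 3, where leaving out single arrays gave -0.054 to 0.12), Sesn2 (0.036 without DBZ replicate 1, in a range of -0.11 to 0.036) and Cdkn1a (0.016 as the mean of its probe sets, 0.17 for that of largest variance); none of these passed. The cause was not tested.

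Vehicle and DBZ arrays share replicate numbers, but deviations of same-numbered arrays correlated at -0.0086, 0.25 and 0.20, so the numbers were not taken to pair the mice, and not every array correlated best with its own number. With the replicate number as a block 889 genes and 1 member, Phlda3, were called (limma, adjusted p = 0.039), and the median of the members was 0.046. No detection calls were used here, so probe sets below the array median may hold background only.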
